A study of Mus musculus with 33 samples.

Results

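The NAD glycohydrolases and poly-ADP-ribose polymerases were followed as 9 genes, *Cd38*, *Bst1*, *Sarm1*, *Parp1*, *Parp2*, *Parp3*, *Parp4*, *Tnks* and *Tnks2*. They were chosen by symbol, and 9 of 9 were found among the 55376 gene symbols counted in each library. The libraries are total RNA-seq of 3 sorted populations: hematopoietic stem cells (HSCs), progenitors of the lymphoid lineage (common lymphoid progenitors, CLPs) and progenitors of granulocytes and monocytes (GMPs). They came from the marrow of male C57BL/6 mice aged 24 to 29 months. In cohort 2, each cell type gave 4 libraries from untreated old mice (O-WT) and 4 from old mice given nicotinamide riboside (NR), a precursor of NAD+, in the drinking water for 4 to 6 weeks (O-NR). In cohort 1, HSCs alone were sequenced. O-WT gave 2 libraries, O-NR gave 4, and O-NR-RC gave 3, the last being mice whose NR had been stopped 2 months before. No label names a transgene or a deletion. Within a cell type each library is taken as 1 mouse, which the labels do not state, so a p-value measures the spread between libraries. The names of the deposited cohort 2 tables point to the same 8 mice for the 3 cell types, so libraries compared between cell types may not be independent, and the fit with the replicate number as a block is given where it changed a call. One label field calls the GMPs common myeloid progenitors, while their titles and the study name them GMPs.

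NAD+ is a redox carrier and also a substrate that some enzymes break. CD38 and its relative BST1 (CD157) are surface glycohydrolases that split NAD+ into nicotinamide and ADP-ribose and also make cyclic ADP-ribose, a calcium messenger. CD38 is known as a marker of murine HSC subsets and of B lineage cells, and BST1 was first described as a stromal molecule that supports early B cells. SARM1 is a glycohydrolase best known from degenerating axons. The PARPs use NAD+ to attach ADP-ribose to proteins. PARP1, PARP2 and PARP3 act at DNA strand breaks, PARP4 is a component of the vault particle, and the tankyrases TNKS and TNKS2 modify AXIN and telomeric proteins.

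Between 4792380 and 18213674 reads were counted per library in cohort 2 and between 8897256 and 23816042 in cohort 1. Levels are given as CPM, the count of a gene set to a fixed library total, after scaling with edgeR's TMM factors, each set of libraries apart, unless another scale is named. The sorted types of cohort 2 matched their markers. In cohort 2 O-WT the summed CPM of 5 HSC markers was 929 to 1294 in HSCs and at most 77.8 elsewhere. That of 5 CLP markers was 1690 to 3288 in CLPs and at most 42.8 elsewhere. That of 5 GMP markers was 16694 to 24722 in GMPs and at most 411 elsewhere. The HSC libraries of cohort 1 were less even, with HSC marker sums of 915 to 967 CPM in O-WT, 545 to 1406 in O-NR and 489 to 1230 in O-NR-RC. Their CLP marker sums were 52.8 to 77.0 CPM, against 22.6 to 34.9 in O-WT HSCs of cohort 2.

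The 9 genes lie on 7 chromosomes of the mouse genome (GRCm38, Gencode M21 gene bounds). *Bst1* (chr5:43818885-43843986) and *Cd38* (chr5:43868553-43912375) stand in tandem on the plus strand, 24567 bp apart. *Parp1* is at chr1:180568924-180601254, *Parp2* at chr14:50807841-50821301, *Parp4* at chr14:56575619-56659794 and *Tnks2* at chr19:36834232-36893477, all on the plus strand. *Sarm1* (chr11:78472330-78497754), *Parp3* (chr9:106470322-106476949) and *Tnks* (chr8:34826460-34965690) are on the minus strand. Exon sequence is shared with an antisense gene over 98 bp in *Bst1* (*Fbxl5*), 20 bp in *Parp3* (*Rrp9*), 335 bp in *Parp4* (*Gm16573*) and 635 bp in *Tnks* (*Gm9939*). The strand setting of the counting is not given in the sources used here, so counts over these stretches are uncertain.

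RefSeq (GRCm38.p6) gave a start window for 7 of the 9 genes, and *Bst1* and *Tnks* had none. The 150 bases before the start are shown for *Parp1* and *Parp4*, which differed between HSCs and progenitors in opposite directions. Capitals mark GC boxes, GGGCGG on either strand (CCGCCC on the strand printed), the letters that SP-family factors bind.
Parp1 (chr1:180568741-180568890, plus strand): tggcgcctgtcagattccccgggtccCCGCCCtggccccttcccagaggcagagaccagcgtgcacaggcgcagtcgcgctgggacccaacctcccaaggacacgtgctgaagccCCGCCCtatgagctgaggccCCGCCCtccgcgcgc
Parp4 (chr14:56575469-56575618, plus strand): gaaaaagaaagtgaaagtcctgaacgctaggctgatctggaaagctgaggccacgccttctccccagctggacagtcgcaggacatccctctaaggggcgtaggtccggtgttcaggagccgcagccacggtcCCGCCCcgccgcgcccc
The *Parp1* window held 3 GC boxes and 13 CpG sites at 72.0% G plus C, and that of *Parp4* held 1 GC box and 11 CpG sites at 63.3%. A GC box occurred in 28.6% of 32843 windows of the same length, whose median held 4 CpG sites at 54.0% G plus C. None of the 7 windows held CCAAT or TATAAA on either strand, which occurred in 24.5% and 7.6% of all windows. The *Cd38* window (chr5:43868659-43868808) held no GC box and 1 CpG site. It precedes the RefSeq start but lies inside the Gencode bounds given above. The *Parp2* window (chr14:50807766-50807915) crosses the Gencode start in the same way.

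*Parp1* was the highest of the 9 genes per kilobase of exon in every cell type. Over the 8 libraries of a cell type, *Parp1* stood at 22.4 ± 3.65 CPM per kb (SD, n = 8) in HSCs, while CLPs had 76.2 ± 18.2 and GMPs 57.1 ± 7.63. In HSCs *Parp4* (16.5 ± 2.16 CPM per kb) and *Tnks2* (13.3 ± 1.34) came next. In CLPs these were *Tnks2* (10.8 ± 1.79) and *Parp2* (10.2 ± 1.72), and in GMPs *Parp2* (14.7 ± 1.70) and *Tnks2* (13.4 ± 1.57). The 3 glycohydrolases were the lowest genes in CLPs and GMPs, at 0.481 to 3.68 CPM per kb on average, whereas in HSCs *Cd38* (5.48 ± 0.880 CPM per kb) stood above *Parp3*.

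**Figure D1:**
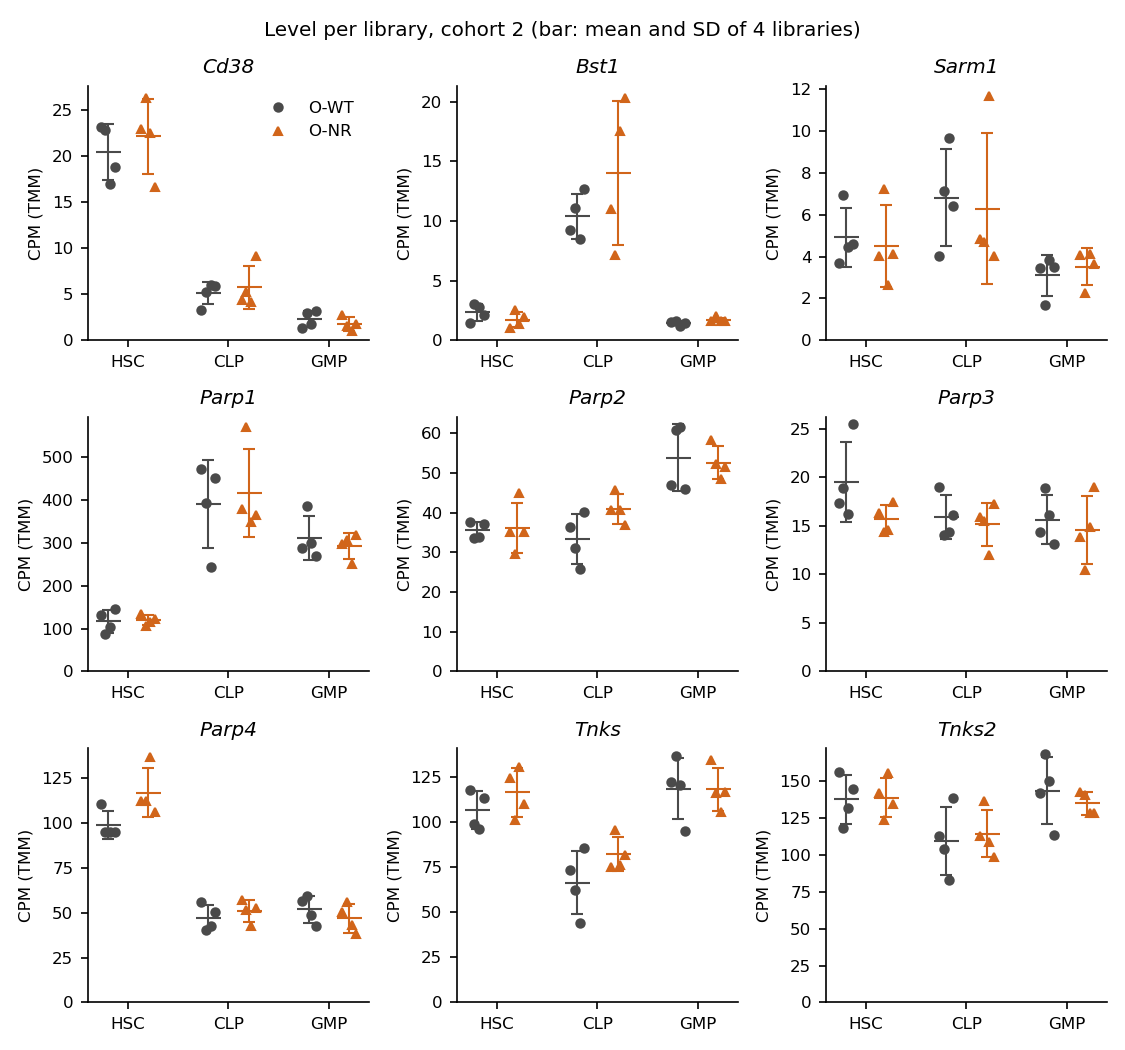
Each panel plots the level of 1 gene in CPM (TMM scaling) in the 24 libraries of cohort 2, by cell type. Grey circles are O-WT, orange triangles are O-NR, and bars give the mean and SD of 4 libraries. *Cd38* stepped down from HSCs through CLPs to GMPs without overlap, *Bst1* was high in CLPs, *Parp1* was high in CLPs and GMPs, and *Parp4* was high in HSCs, while O-WT and O-NR points overlapped in every panel except for *Bst1* in GMPs.

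To ask how the 9 genes differed between the cell types, all 24 libraries were fitted together and pairs of types compared within each treatment at an adjusted p below 0.05. CLPs differed from HSCs in 5 genes in O-WT (2 higher, 3 lower), against 28.8% of all 22573 genes tested (8.52% higher, 20.2% lower), and in 5 genes in O-NR (2 higher, 3 lower), against 31.5% (11.0% higher, 20.5% lower). GMPs differed from HSCs in 4 genes in each treatment (2 higher, 2 lower), against 43.1% of all genes in O-WT (19.4% higher, 23.7% lower) and 36.5% in O-NR (16.1% higher, 20.4% lower). GMPs differed from CLPs in 6 genes in O-WT (3 higher, 3 lower), against 59.0% (26.3% higher, 32.7% lower), and in 4 genes in O-NR (1 higher, 3 lower), against 39.2% (19.2% higher, 20.1% lower). The share of members called lay above the background for CLPs against HSCs and close to it for the other pairs, and counts over 9 genes are not read further. The same calls in the same direction were made in both treatments for 5, 4 and 3 genes, against 24.2%, 32.6% and 33.5% of all genes. For sorted bulk cells, fewer cells that express a gene and less RNA per cell cannot be told apart.

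**Figure D2:**
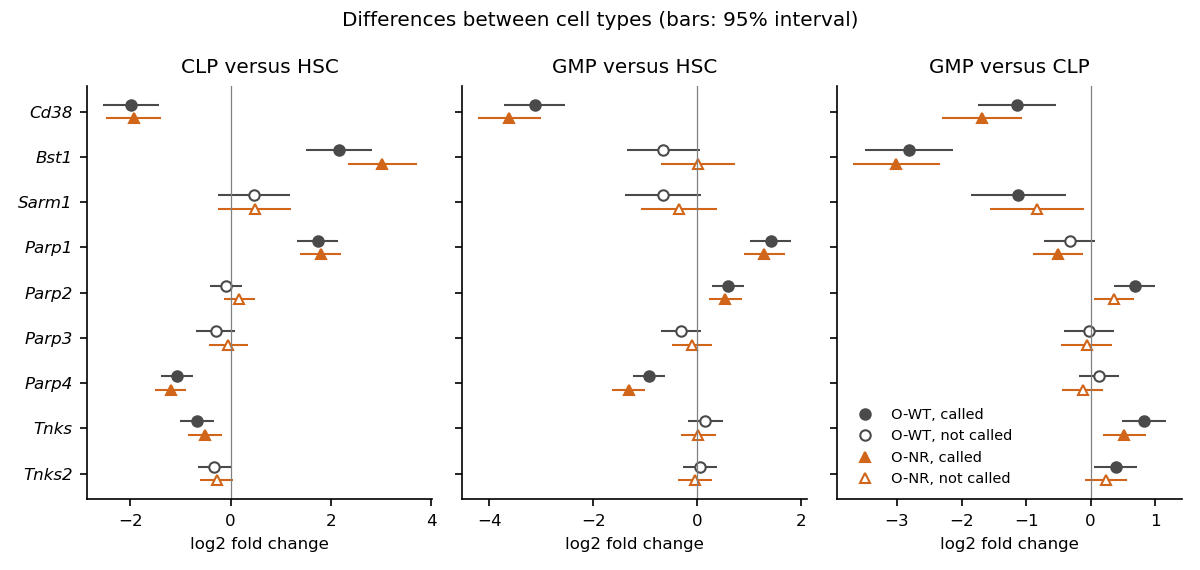
The horizontal axis is the log2 fold change between cell types, with its 95% interval, for each gene in O-WT (circles) and O-NR (triangles). Filled symbols passed an adjusted p of 0.05. *Cd38* lay below 0 in all 3 panels, *Bst1* stood far from 0 only against CLPs, and *Parp1* and *Parp4* lay on opposite sides of 0 against HSCs.

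The choice of scaling bears on these comparisons. With TMM the median log2 fold change of all genes was -0.42 for GMPs against HSCs and -0.46 for GMPs against CLPs in O-WT. Scaling by library size moved the median between GMPs and CLPs of O-WT by a further -0.55, and upper quartile scaling moved it by -0.44, while DESeq2 moved it by 0.24. The part of the calls that were higher in CLPs than in HSCs in O-WT was 29.6% with TMM, 54.5% with the upper quartile and 48.0% with library size, and in O-NR 35.0% became 56.6% with the upper quartile and 45.5% with DESeq2. For GMPs against HSCs it was 45.1% in O-WT, 62.1% with DESeq2 and 29.1% with library size, and in O-NR 44.1% became 55.3% with DESeq2. For GMPs against CLPs it was 44.6% in O-WT, 22.6% with the upper quartile, 56.6% with DESeq2 and 18.3% with library size, and in O-NR 48.8% became 27.9% with the upper quartile and 29.8% with library size. The calls that held under all of these scalings in both treatments were those of *Cd38* in the 3 pairs, *Bst1* in CLPs against either type, and *Parp1*, *Parp4* and (GMPs only) *Parp2* against HSCs.

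*Cd38* was highest in HSCs and lowest in GMPs. In O-WT the HSC libraries had 23.2, 22.8, 17.0 and 18.8 CPM, the CLP libraries 3.36, 5.30, 6.01 and 5.89 and the GMP libraries 1.39, 2.94, 1.83 and 3.15. In O-NR they had 23.0, 26.4, 22.6 and 16.6 CPM (HSCs), 4.40, 5.31, 4.22 and 9.20 (CLPs) and 2.79, 1.61, 0.988 and 1.81 (GMPs). No library of one cell type reached the range of another. CLPs were 3.97-fold lower than HSCs in O-WT (log2 fold change -1.99 ± 0.28, SE; adjusted p = 1.2e-07) and 3.82-fold lower in O-NR (-1.93 ± 0.27; adjusted p = 1.61e-07). GMPs were lower than HSCs by 8.76-fold in O-WT and 12.3-fold in O-NR, and lower than CLPs by 2.20-fold and 3.21-fold. In GMPs these levels rest on 12 to 38 reads per library. *Dennd5b* and *Arhgef5* had the patterns most like that of *Cd38* over the 24 libraries (Pearson r = 0.96 for each), a description over libraries that share cell type and depth.

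*Bst1*, the neighbour of *Cd38*, had another order, with CLPs above HSCs and GMPs. In O-WT CLPs it was at 9.29, 11.1, 8.52 and 12.7 CPM and in O-NR CLPs at 11.0, 7.16, 17.5 and 20.3. In HSCs its 8 values ran from 1.08 to 3.05 CPM (median 2.02) and in GMPs from 1.25 to 2.01 (median 1.60), so that these types overlapped each other and neither reached CLPs. On total reads, the scale of the 3 CPM filter, *Bst1* ran from 1.04 to 3.44 CPM in HSCs (median 1.98) and from 0.994 to 1.68 in GMPs. It thus entered the fit through CLPs, and its folds describe CLPs against levels of 12 to 30 reads (HSCs) and 15 to 25 reads (GMPs). CLPs were 4.46-fold higher than HSCs in O-WT (log2 fold change 2.16 ± 0.33; adjusted p = 7.52e-07) and 8.14-fold higher in O-NR (3.02 ± 0.34; adjusted p = 7.43e-10). GMPs were lower than CLPs by 7.04-fold and 8.06-fold. GMPs and HSCs differed by -0.66 in O-WT (adjusted p = 0.119), which library size scaling called (-0.99), and by 0.01 in O-NR. The NR effect in CLPs and that in HSCs differed by 0.87 on the log2 scale (95% interval -0.06 to 1.80). In HSCs alone *Bst1* was under the filter, so this interval is a description.

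Most of the B cell markers moved with *Bst1*. The summed level of 5 B cell markers was 217 to 488 CPM in O-WT CLPs and 217 to 524 in O-NR CLPs, against 21.4 to 36.5 in HSCs and 18.7 to 25.3 in GMPs of cohort 2, and none of the 5 was at 0 in all libraries of a group. The sum was carried by *Pax5* (mean 200 CPM in O-WT CLPs) and *Cd79a* (71.3), whereas *Ms4a1* was at 9.42 CPM in O-WT CLPs and 7.57 in O-WT HSCs, with overlap. The genes most like *Bst1* over the 24 libraries were *Cecr2* (r = 0.97) and *Pax5*, the B lineage transcription factor (r = 0.96). The part of B lineage cells in the *Bst1* level was not tested.

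*Sarm1* was low in all types. HSCs had 4.71 ± 1.58 CPM, CLPs 6.54 ± 2.80 and GMPs 3.31 ± 0.883 (SD, n = 8), and all 3 ranges overlapped. The 1 call was GMPs below CLPs in O-WT, by 2.17-fold (log2 fold change -1.12 ± 0.36; adjusted p = 0.00954). It was lost without the second O-WT GMP library, where the change was -0.91, and with no filter (-0.84). In O-NR the same difference was -0.83 (95% interval -1.56 to -0.10; adjusted p = 0.0634), which upper quartile (-1.12) and library size scaling (-1.14) called. *Mov10l1* and *Trpm1* were most like it (r = 0.92 for each).

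The 3 glycohydrolases were also set against genes that blood cells are not known to use. Over 1416 olfactory and vomeronasal receptor genes the mean level was 0.197 to 0.900 CPM per kb in cohort 2 and 1.17 to 2.04 in cohort 1. *Cd38* stood at 8.66 to 22.7 times this mean in HSCs of cohort 2, whereas CLPs had 1.52 to 3.88 times and GMPs 0.748 to 3.83 times the mean. The receptor mean itself was on average 0.591 CPM per kb in O-WT CLPs and 0.276 in O-WT GMPs. Set against it, CLPs and GMPs overlapped for *Cd38* and for *Sarm1*, although both genes were called lower in O-WT GMPs. The part of this background in the differences between CLPs and GMPs was not tested. In HSCs of cohort 1, where the receptor mean was higher, *Cd38* stood at 2.60 to 10.7 times it, which overlaps the ratios of CLPs and GMPs. *Bst1* stood at 2.86 to 8.87 times the mean in CLPs, 1.04 to 1.79 times in HSCs and 1.21 to 2.43 times in GMPs of cohort 2. In the 9 HSC libraries of cohort 1 it was below the receptor mean, at 0.574 to 0.991 times. *Sarm1* stood at 1.03 to 2.89 times the mean over all libraries. Outside CLPs the counts of *Bst1* were thus near those of genes not known to be used in these cells.

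**Figure D3:**
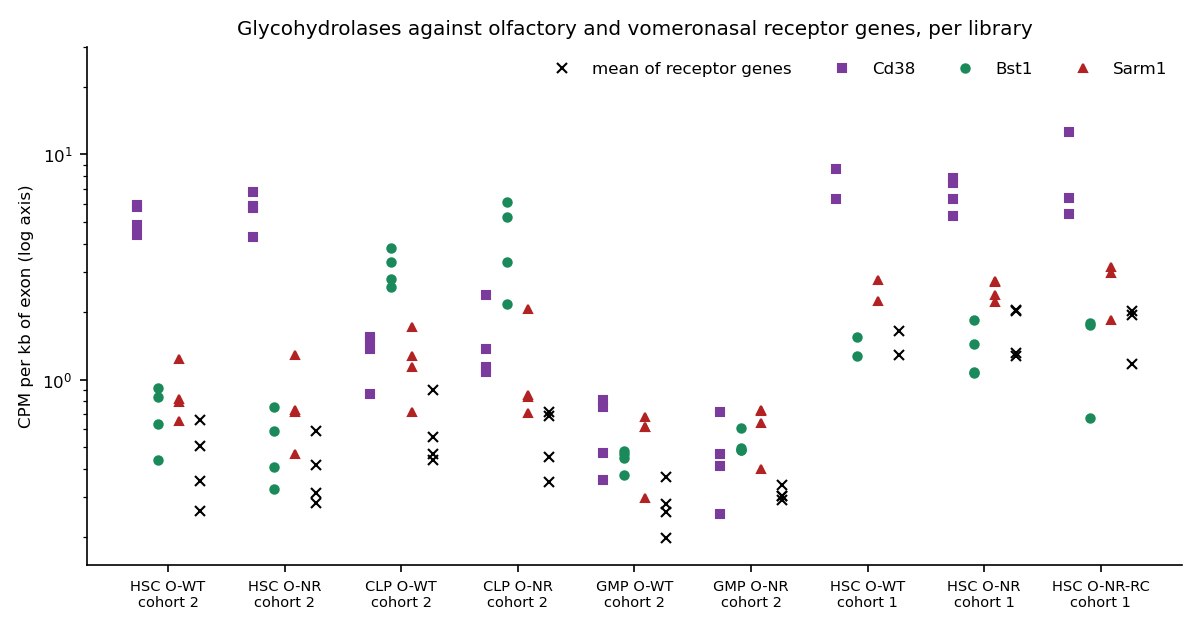
Points give the level of *Cd38*, *Bst1* and *Sarm1* in CPM per kb of exon (log axis) in each of the 33 libraries, and crosses the mean of 1416 receptor genes in the same library. *Cd38* in HSCs of cohort 2 and *Bst1* in CLPs stood clear of the crosses, whereas *Bst1* fell below the crosses of its own libraries in cohort 1.

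*Parp1*, which senses strand breaks, was higher in both progenitor types than in HSCs. In O-WT the HSC libraries had 133, 87.1, 103 and 146 CPM, the CLP libraries 471, 394, 244 and 452 and the GMP libraries 289, 387, 300 and 269. In O-NR they had 134, 106, 116 and 123 CPM (HSCs), 379, 570, 349 and 366 (CLPs) and 297, 306, 251 and 319 (GMPs). HSCs stayed below every library of the other types, while CLPs and GMPs overlapped. Against HSCs, CLPs were 3.33-fold higher in O-WT (log2 fold change 1.74 ± 0.20; adjusted p = 1.66e-09) and 3.47-fold higher in O-NR (1.80 ± 0.20; adjusted p = 6.74e-10). GMPs were 2.66-fold and 2.44-fold higher (adjusted p = 1.09e-07 and 6.69e-07). GMPs and CLPs differed by -0.33 in O-WT (adjusted p = 0.137; called at -0.76 with the upper quartile and -0.85 with library size) and by -0.51 in O-NR (adjusted p = 0.0367). The O-NR call was lost with DESeq2 (-0.35), with a term for the replicate number, which may mark the mouse (adjusted p = 0.0523), and in 10 of the fits that left out 1 library, among them that without the second O-NR CLP library (-0.32). *Cdv3* and *Tmsb10* were most like *Parp1* (r = 0.98 for each).

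*Parp2*, the other strand break sensor of this kind, ran from 29.6 to 44.9 CPM in HSCs (median 35.2), from 25.8 to 45.7 across the CLP libraries (median 38.5) and from 46.0 to 61.5 across the GMP libraries (median 51.9). GMPs thus lay above every HSC and CLP library. They were 1.51-fold above HSCs in O-WT (log2 fold change 0.59 ± 0.16; adjusted p = 0.00174) and 1.45-fold in O-NR (0.54 ± 0.16; adjusted p = 0.00479), a difference that was 0.27 with library size scaling and 0.87 with DESeq2 in O-WT. Against CLPs the difference was called in O-WT (0.69; adjusted p = 0.000418) and not in O-NR (0.36; adjusted p = 0.0598), and the O-WT call was lost with library size scaling (0.15). *Parp3*, a mono-ADP-ribosyltransferase of double-strand break repair, had 17.6 ± 3.53 CPM in HSCs, while CLPs had 15.5 ± 2.12 and GMPs 15.1 ± 2.89, and no pair of types was called. With upper quartile scaling the GMPs of O-WT were called below HSCs (-0.49) and CLPs (-0.47), and with library size too (-0.65 and -0.58). Its 95% intervals with TMM reached from -0.71 to 0.36 over the 6 comparisons. The patterns most like *Parp2* were *Pus10* (r = 0.96) and *Pfn1* (r = 0.95), and for *Parp3* no gene came closer than *Serpina3f* and *Jun* (r = 0.68 for each).

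*Parp4*, the vault PARP, went the other way from *Parp1*. In HSCs it was at 111, 94.7, 94.8 and 94.8 CPM in O-WT and 112, 112, 137 and 106 in O-NR. In CLPs it was at 55.8, 40.4, 42.8 and 50.2 CPM in O-WT and 57.0, 51.2, 42.4 and 52.8 in O-NR, and its 8 GMP values ran from 37.9 to 59.3. All HSC libraries stood above all progenitor libraries, and CLPs and GMPs overlapped. CLPs were 2.09-fold lower than HSCs in O-WT (log2 fold change -1.06 ± 0.16; adjusted p = 5.05e-07) and 2.29-fold lower in O-NR (-1.20 ± 0.16; adjusted p = 3.37e-08). GMPs were 1.91-fold and 2.50-fold lower than HSCs (adjusted p = 3.38e-06 and 2.57e-09). Between GMPs and CLPs of O-WT the sign of the difference turned with the scaling, from 0.13 with TMM, not called, to -0.31 with the upper quartile and -0.42 with library size, both called. *Rhbdd2* (r = 0.98) and *Lysmd2* (r = 0.97) were most like it.

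*Tnks*, the first of the tankyrases, was lowest in CLPs. It ran from 96.2 to 130 CPM in HSCs (median 112), whereas CLPs had 44.2 to 95.7 (median 75.6) and GMPs 95.3 to 136 (median 119), so that CLPs lay below every HSC library and HSCs and GMPs overlapped. CLPs were 1.60-fold lower than HSCs in O-WT (log2 fold change -0.68 ± 0.17; adjusted p = 0.00137) and 1.42-fold lower in O-NR (-0.50 ± 0.17; adjusted p = 0.0174). The O-NR call was lost with the upper quartile (-0.24), with DESeq2 (-0.45) and without any 1 of 5 libraries, and the O-WT call without the third O-WT CLP library (-0.45) and with no filter (adjusted p = 0.061). That CLP library had the fewest counted reads of cohort 2 (4792380) and its highest receptor mean (0.900 CPM per kb). On total reads *Tnks* was at 65.9 CPM in it, against 77.8 to 85.5 in the other O-WT CLP libraries. GMPs were above CLPs by 1.78-fold in O-WT (adjusted p = 8.64e-05) and 1.44-fold in O-NR (adjusted p = 0.0125), the latter lost with the upper quartile (0.24) and without the first O-NR GMP library (0.46). *Prdx6* and *Suclg2* were most like *Tnks* (r = 0.98 for each).

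*Tnks2* ran from 118 to 156 CPM in HSCs, whereas CLPs had 83.0 to 139 and GMPs 114 to 168, and its ranges overlapped throughout. The 1 call, GMPs above CLPs in O-WT (0.39 ± 0.16; adjusted p = 0.0396), turned to -0.053 with upper quartile and -0.15 with library size scaling and had an adjusted p of 0.0561 with the replicate number as a block. *Prkar1a* and *Rps4x* were most like it (r = 0.95 for each). Its level was steadier on total counted reads than on the TMM scale. Over the 9 groups of libraries its median coefficient of variation was 14.1% with TMM and 4.1% on total reads, and that of *Tnks* was 14.4% and 5.9%, while those of *Bst1* (26.9% and 38.5%) and *Sarm1* (28.6% and 39.4%) were larger on total reads. On total reads *Tnks2* ran from 131 to 143 CPM in HSCs and from 112 to 122 in GMPs, without overlap and in the reverse order of the TMM medians. With library size scaling GMPs were called below HSCs (-0.26 in O-WT, -0.20 in O-NR).

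To ask whether NR changed these genes, O-NR and O-WT were compared within each cell type of cohort 2 at an unadjusted p below 0.01. In HSCs 8 genes were tested and none passed, against 0.726% of all genes, and *Bst1* was under the filter of 3 CPM. In CLPs 9 were tested and none passed, against 0.412%. In GMPs 7 were tested and none passed, against 0.986%, with *Cd38* and *Bst1* under the filter. At an unadjusted p below 0.05 there was 1 gene in HSCs (3.84% of all genes) and 0 in CLPs (3.21%) and GMPs (4.80%), and DESeq2 called 0 in each. The smallest adjusted p of the 9 genes over the 3 cell types was 0.995. O-NR and O-WT libraries overlapped for each gene tested, while 2.27%, 2.49% and 1.45% of all genes did not overlap in HSCs, CLPs and GMPs. Under the filter, *Bst1* in GMPs was at 1.54, 1.59, 1.25 and 1.49 CPM in O-WT and 1.61, 2.01, 1.65 and 1.62 in O-NR. These do not overlap, but they rest on 15 to 25 reads per library.

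The smallest p belonged to *Parp3* in HSCs. It was at 17.3, 18.9, 16.2 and 25.5 CPM in O-WT and 16.3, 14.3, 14.5 and 17.5 in O-NR, with a log2 fold change of -0.37 (95% interval -0.71 to -0.02; edgeR adjusted p = 0.995). In O-WT the fourth library was the highest, without it the log2 fold change was -0.21, and the ranges overlapped. *Parp4* in HSCs had a log2 fold change of 0.20 (95% interval -0.02 to 0.41), with 3 of 4 O-NR libraries above all O-WT libraries. *Bst1* in CLPs had 0.40 (95% interval -0.19 to 0.98), and its O-NR values spanned those of O-WT. Without the fourth O-NR library it was 0.14, without the third 0.26, and without the second 0.63. *Cd38* differed by 0.08 in HSCs (95% interval -0.25 to 0.40) and by 0.14 in CLPs (-0.64 to 0.93). *Parp1* differed by -0.01 in HSCs (-0.30 to 0.28), 0.06 in CLPs (-0.43 to 0.55) and -0.03 in GMPs (-0.19 to 0.13).

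Among all genes called for NR, the part that was higher in O-NR was 51.6% in HSCs (39.9% with library size scaling), 37.8% in CLPs (20.9%) and 24.1% in GMPs (55.8%, and 41.5% with the upper quartile).

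How small a change could be seen depended on the gene and the cell type. The half-width of the 95% interval on the log2 scale had a median of 0.27 for HSCs of cohort 2, 0.45 for CLPs and 0.19 for GMPs. It was narrowest for *Tnks2* in GMPs (0.15) and widest for *Sarm1* in HSCs (0.81). The NR effects of CLPs against HSCs, GMPs against HSCs and GMPs against CLPs were compared by interaction tests, in which 0 of 9 genes passed each time, against 0.421%, 0.133% and 0.439% of all genes. At p below 0.05 the count was also 0 of 9, against 2.38%, 1.42% and 3.56%, and DESeq2 called 0. Among the 9, *Bst1* in HSCs and GMPs and *Cd38* in GMPs were under the filter within those types. They entered the interaction tests only because the fit of all 24 libraries kept them. In HSCs of cohort 2 the summed level of 5 plasma cell markers was 135 to 653 CPM in O-WT and 54.9 to 104 in O-NR, without overlap. The sum was carried by *Ighm* (mean 155 CPM in O-WT and 5.38 in O-NR) and *Xbp1* (120 and 57.1), while *Sdc1* (4.85 and 5.12) and *Mzb1* (0.291 and 0.389) were not lower in O-NR. The part of these markers in the HSC values above was not tested.

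**Figure D4:**
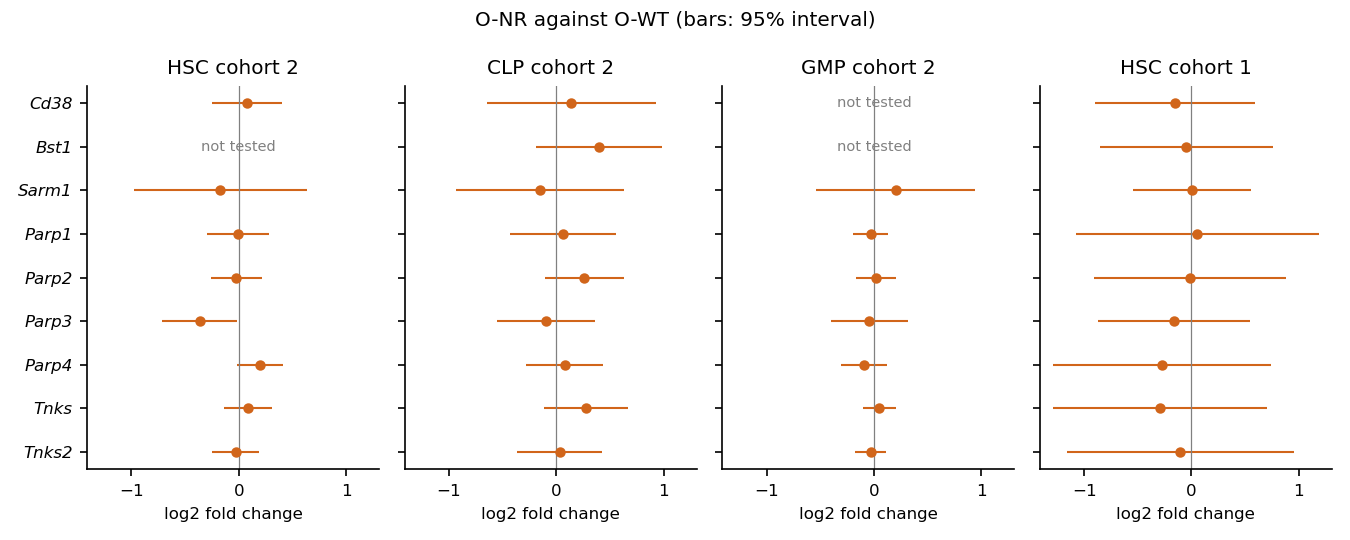
The horizontal axis is the log2 fold change of O-NR against O-WT, with its 95% interval, in HSCs, CLPs and GMPs of cohort 2 and HSCs of cohort 1. Intervals cover 0 for each gene tested except *Parp3* in HSCs of cohort 2, which ended at -0.02, and their median half-width is largest in cohort 1 (0.89).

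In the HSCs of cohort 1, O-NR was compared with O-WT and with O-NR-RC, the group taken off NR. None of the 9 genes passed a p of 0.01 in O-NR against O-WT (0.0480% of all genes), O-NR-RC against O-NR (0.0360%) or O-NR-RC against O-WT (0.0780%). The counts at p below 0.05 were 0 as well (0.546%, 0.291% and 0.795% of all genes), and DESeq2 called 0 in each. These comparisons share libraries and so are not independent. The calls over all genes behind these shares are few and moved with single libraries. Without the first O-NR-RC library, 135 genes instead of 12 were called for O-NR-RC against O-NR and 484 instead of 26 for O-NR-RC against O-WT, and without the third O-NR-RC library the latter was 5. DESeq2 called 26 and 106. For O-NR against O-WT, 16 became 4 without the first O-NR library and 46 without the first O-NR-RC library. Among these calls, the part that was higher moved between scalings, from 25.0% to 79.7% for O-NR against O-WT (43.8% with TMM), from 60.0% to 91.7% for O-NR-RC against O-NR and from 50.0% to 82.1% for O-NR-RC against O-WT. *Cd38* was at 33.6 and 24.6 CPM in O-WT, 20.6, 24.5, 29.1 and 30.5 in O-NR and 48.7, 25.0 and 21.1 in O-NR-RC. *Parp1* was at 124 and 136 CPM in O-WT, 86.0, 94.0, 166 and 195 in O-NR and 199, 76.0 and 79.6 in O-NR-RC. The third and the fourth O-NR and the first O-NR-RC library were high for *Parp1* and, with TMM, for each of *Parp2*, *Parp3*, *Parp4*, *Tnks* and *Tnks2* as well. These libraries were the deepest of cohort 1 (18807233, 21694836 and 23816042 reads). Their receptor means were 1.31, 1.27 and 1.17 CPM per kb, against 1.93 to 2.04 in the other O-NR and O-NR-RC libraries. The part of depth and of this background in the split was not tested.

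The spread within these groups moved with the scaling. TMM factors of cohort 1 ran from 0.666 to 1.33, and on total counted reads *Parp1* in O-NR was at 127 ± 21.1 CPM instead of 135 ± 53.5 (SD, n = 4), and *Tnks2* at 113 ± 13.7 instead of 119 ± 40.9. The half-width of the interval in cohort 1 had a median of 0.89 on the log2 scale. With both cohorts in one fit and a cohort term, *Parp3* had a log2 fold change of -0.24 (95% interval -0.53 to 0.05), and 0 of 9 genes passed a p of 0.01 (0.103% of all genes) or 0.05 (0.923%). In this fit and the next, *Bst1* was tested although it was under the filter in HSCs of cohort 2 alone. The NR effect of cohort 1 against that of cohort 2 passed for 0 of 9 genes (0.137% of all genes, and 1.86% at p below 0.05, where the 9 also gave 0), with the lowest p for *Parp4* (-0.47). With the replicate number of each cohort as a block this comparison called *Parp4* (-0.83) and *Tnks* (-0.71). Such a block pairs O-WT and O-NR libraries of one number within a cohort, which come from different mice.

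**Figure D5:**
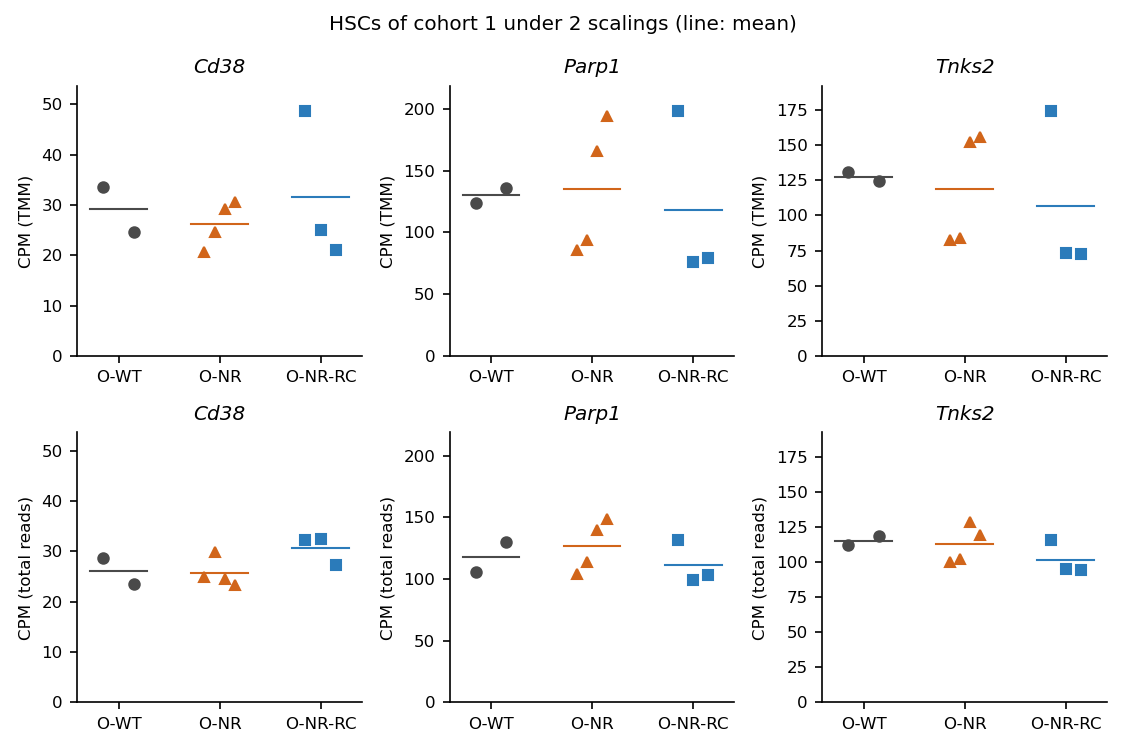
The panels plot *Cd38*, *Parp1* and *Tnks2* in the 9 HSC libraries of cohort 1, in CPM with TMM scaling (upper panels) and on total counted reads (lower panels), with lines at the group means. The split within O-NR and O-NR-RC for *Parp1* and *Tnks2* was narrower on total reads.

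Other genes of ADP-ribose biology were counted in O-WT from lists made for this purpose. Over all genes, 8.52% were called higher and 20.2% lower in CLPs than in HSCs, 19.4% and 23.7% in GMPs than in HSCs, and 26.3% and 32.7% in GMPs than in CLPs, and lists of 2 to 10 genes are described beside these shares and not tested. Of 10 further PARP-family genes, 1 was higher and 5 were lower in CLPs than in HSCs (median log2 fold change -0.45, against 0.06 over all genes), and 3 were higher and 4 lower in GMPs (median -0.38, against -0.42). With the upper quartile 3 were higher and 3 lower in CLPs, and 3 higher and 6 lower in GMPs. *Parp12*, an interferon-induced mono-ADP-ribosyltransferase, fell from 47.6 ± 9.39 CPM in HSCs to 11.9 ± 2.76 in CLPs and 10.7 ± 1.82 in GMPs (SD, n = 4). *Parp8* rose from 53.0 ± 1.96 CPM in HSCs to 136 ± 34.6 in CLPs and 231 ± 50.5 in GMPs. Of 6 ecto-ADP-ribosyltransferases, 4 were tested, 1 was lower in CLPs and 3 in GMPs than in HSCs (2 in GMPs with DESeq2, and 1 also higher in CLPs with each of the other scalings). *Art4*, the Dombrock blood group gene, had 160 ± 35.0 CPM in HSCs, while CLPs had 26.6 ± 7.23 and GMPs 3.23 ± 0.628, the same order of types as *Cd38*.

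Of 7 genes that remove ADP-ribose, 2 were lower in CLPs than in HSCs, a count that was 0 with DESeq2 and with library size scaling, while the upper quartile called 1 higher and 0 lower. In GMPs 1 was higher and 1 lower, with 3 higher and 0 lower with DESeq2 and 1 and 2 with library size. *Parg*, the poly-ADP-ribose glycohydrolase, was higher in GMPs than in HSCs by 0.72 on the log2 scale (adjusted p = 0.000206). Of 10 partners of the PARPs in strand-break repair, 1 was higher and 2 were lower in CLPs (3 higher and 1 lower with the upper quartile and with library size), and 7 were higher and 1 lower in GMPs than in HSCs (median 0.62, against -0.42). *Xrcc6*, which encodes KU70, rose by 2.06 on the log2 scale in CLPs, while *Xrcc5*, which encodes KU80, was at -1.62 in GMPs against HSCs. With library size scaling 5 partners were higher and 3 lower in GMPs.

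Of 7 tankyrase partners and targets, 3 were lower in CLPs than in HSCs, among them *Numa1* (-0.91), a spindle pole protein, and *Rnf146* (-0.59), the ubiquitin ligase that reads poly-ADP-ribose, whose call DESeq2 did not make. In GMPs 1 was higher and 1 lower than in HSCs, but 1 higher and 3 lower with the upper quartile and 0 and 4 with library size. Of 2 vault genes, *Mvp*, the major vault protein, was lower than in HSCs in both progenitor types (log2 fold change -1.54 in CLPs and -0.94 in GMPs), the same direction as *Parp4*, and the other vault gene was not called with TMM, though the upper quartile and library size scaling called both lower in GMPs. Of 8 genes that encode channels of cyclic ADP-ribose and NAADP or ecto-nucleotidases, 2 were higher in CLPs, and 2 were higher and 3 lower in GMPs. *Tpcn1*, a cation channel of the endolysosome, rose by 1.28 in CLPs and 1.19 in GMPs. Between GMPs and CLPs, the 4 ecto-ADP-ribosyltransferases tested were lower in GMPs under each scaling, where 7384 of 22573 genes were called lower with TMM and 13065 with library size. In the other lists the counts moved with the scaling: 5 of 7 removal genes were higher in GMPs than in CLPs with TMM and 1 with library size, and 7 of 10 repair partners with TMM and 3 with library size. Of the further PARPs 3 were higher and 2 lower in GMPs than in CLPs (1 and 7 with library size), of the tankyrase partners 2 and 0 (0 and 3), of the vault genes 1 and 0 (0 and 1) and of the channels and ecto-nucleotidases 0 and 4 (0 and 6). No tested gene of these 7 lists passed a p of 0.01 for O-NR against O-WT in any cell type of cohort 2. Of the 6 ecto-ADP-ribosyltransferases the filter kept 4 for HSCs, 3 for CLPs and 0 for GMPs, so GMPs give no result for that list. The shares of all genes that passed were 0.726% (HSCs), 0.412% (CLPs) and 0.986% (GMPs). At such shares lists this short would seldom hold a call, and the absence of calls is not read further.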

How the data were processed

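Total RNA of 33 sorted populations was made into stranded libraries. Per the study's methods, reads were adapter-trimmed and mapped by STAR (mm10), and featureCounts assigned them to Gencode M22 genes. The authors deposited raw counts per gene symbol, not normalized, in 1 table per library. The strand and multi-mapping settings are not given in the sources used here.

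Here the counts were tested with edgeR 4.0.16 (R 4.3.3, limma 3.58.1), by its quasi-likelihood test with TMM scaling, on genes above 3 CPM in as many libraries as the smallest group of the comparison. Cell types were compared in a single fit of the 24 libraries of cohort 2 and called at a Benjamini-Hochberg adjusted p below 0.05. NR, cohort and interaction effects were called at an unadjusted p below 0.01. DESeq2 1.42.0, upper quartile and library size scaling, no filter, a minimum fold of 1.5, a replicate block, a surrogate variable (sva 3.50.0) and leaving out each library were the alternatives. Library size scaling was chosen after seeing the data. CPM per kb uses exon lengths of Gencode M21.

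The 9 genes and the gene lists were chosen with earlier results of these data known. Besides the 9, the genes named are the 2 with the highest Pearson correlation to each member over the 24 libraries, in each list called genes with the smallest p, marker genes where a population is checked, and genes whose exons overlap a member. Names of the deposited cohort 2 libraries point to the same mouse for HSC, CLP and GMP libraries of one number. As a check, deviations from the group means of same-numbered HSC and CLP libraries of O-WT correlated over genes at 0.12 to 0.36 (4 of 4 over 0.1). Of these HSC libraries, 2 of 4 correlated best with the CLP library of their own number. In the other pairs of cell types the mean correlation ran from -0.19 (HSCs and GMPs of O-WT) to 0.098 (CLPs and GMPs of O-NR). None of these had all pairs over 0.1, so the check does not settle whether mice were shared. On simulated data for CLPs against HSCs of O-WT (20580 genes), 56.0% of genes changed 2-fold and 99.0% of those changed 4-fold were recovered. For O-NR against O-WT in HSCs of cohort 2 these shares were 79.0% and 90.0%. Only 100 genes were changed at each fold, and all others had 1 mean in every library. The real cell types differ far more widely, so these shares do not give the sensitivity of the real fits. No 2 libraries of a group agreed within sampling noise.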

Additional observations from a re-analysis of the deposited data

Results flagged for a closer look

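In 5 of the 63 groups of 4 libraries tested, 1 library stood apart from the other 3 by Dixon's criterion at the 95% level, which chance gives in about 1 of 20 groups. *Bst1* in GMPs of O-NR was at 2.01 CPM in the second library, against 1.61 to 1.65 in the others. *Sarm1* in CLPs of O-NR was at 11.6 CPM in the third library, against 4.00 to 4.82. *Sarm1* in GMPs of O-WT was at 1.67 CPM in the second library, against 3.48 to 3.83. *Parp1* in CLPs of O-NR was at 570 CPM in the second library, against 349 to 379. *Parp4* in HSCs of O-WT was at 111 CPM in the first library, against 94.7 to 94.8.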

How the results depend on the processing

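For GMPs against HSCs in O-WT, 7 genes were called with library size scaling instead of 4, among them *Tnks2*, which turned to -0.26. Over all 22573 genes, 11522 were called with that scaling instead of 9732. For GMPs against CLPs in O-NR, the calls of *Parp1* (1.42-fold) and *Tnks* (1.44-fold) were lost at a fold above 1.5. In O-WT that comparison turned to -0.31 and -0.42 for *Parp4* and to -0.053 and -0.15 for *Tnks2* with the upper quartile and library size. The cause of these shifts was not tested. With the replicate number of each cohort as a block, the NR effects of cohorts 1 and 2 differed for 2 genes instead of 0, *Parp4* (-0.83) and *Tnks* (-0.71). Over all genes, 3813 were then called instead of 32. This block pairs O-WT and O-NR libraries of a cohort that share only a number, not a mouse. The block changed 2 other calls, *Parp1* and *Tnks2* between GMPs and CLPs. Leaving out 1 library gave 4 to 6 calls for CLPs against HSCs in O-WT (5124 to 7247 over all genes). In O-NR it gave 4 to 5 (5706 to 7958). For GMPs against HSCs it gave 4 in each treatment (7994 to 10732 over all genes in O-WT, 7380 to 8525 in O-NR). For GMPs against CLPs it gave 4 to 6 in O-WT (9002 to 14159) and 2 to 5 in O-NR (6609 to 10090). The 2 were found without the first O-NR GMP library. All NR comparisons within a cohort kept 0 calls under every alternative that was run. Over all genes, the calls for NR were 126 in HSCs of cohort 2 (32 at a fold above 1.5, 330 with a surrogate variable), 82 in CLPs (336 with no filter), 133 in GMPs (14 at a fold above 1.5, 366 with no filter) and 16 in cohort 1 (4 with the upper quartile, 80 with no filter), and leaving out 1 library moved these to 73 to 218, 28 to 135, 60 to 304 and 4 to 46. Depth limits *Bst1* outside CLPs and *Cd38* in GMPs, with 12 to 38 reads per library in cohort 2.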
